A study of Mus musculus with 20 samples.

Results

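MHC class II antigen presentation was examined through 7 mouse genes chosen by their symbols, out of 35226 genes in the table: H2-Aa, H2-Ab1 and H2-Eb1, Cd74, Ciita, and H2-DMa with H2-DMb1. They were measured by poly(A) RNA-Seq in 20 subcutaneous LLC1 tumors, with 1 library per tumor and 5 tumors in each of 4 groups. LLC1 is a Lewis lung carcinoma cell line, injected here in the flank of male C57Bl6/J mice, so each tumor is a mixture of carcinoma cells and the host's own stromal and immune cells. Once tumors were established, mice were given vehicle, cisplatin, the adenosine receptor blocker KW6002 (istradefylline), or both drugs (cotreatment). The animals carried no engineered allele according to the labels and methods. The label of vehicle replicate 1 had another form than those of the other 4 vehicle tumors. All 7 genes passed the filter on low counts.

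Each library label also carried a code number, and these numbers form 2 separate runs, a lower one with 8 tumors (called earlier codes here) and a higher one with 12 tumors (called later codes). The labels do not say what the number stands for. Earlier codes belonged to 1 vehicle, 2 KW6002, 2 cisplatin and 3 cotreatment tumors. Libraries held 28.4 to 41.0 M reads. KW6002 replicate 1 stood apart: the summed level of 6 B cell markers was 68.2 CPM (reads per M reads of library) in it and 3.55 to 6.92 CPM in the other 19 tumors, and its 7 T and NK cell markers summed to 25.0 CPM against at most 10.1 CPM elsewhere. Class II results against KW6002 are given with and without it. Skeletal muscle markers summed to 987.5 CPM in cotreatment replicate 4 and to at most 234.1 CPM elsewhere. Fat markers summed to 232.9 CPM in vehicle replicate 2, 110.1 CPM in KW6002 replicate 1 and at most 72.97 CPM elsewhere.

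MHC class II molecules are heterodimers of an alpha and a beta chain that display peptides from endocytosed proteins to CD4+ T cells. The chains assemble in the endoplasmic reticulum with the invariant chain, the product of Cd74, which fills the groove until cathepsins degrade it in endosomes. H2-DM, a dimer of the H2-DMa and H2-DMb1 products, then releases the last invariant chain fragment and favors tightly binding peptides. The genes are switched on together by CIITA, a coactivator without DNA binding of its own that docks on RFX, CREB and NF-Y at the X and Y boxes of the promoters. Dendritic cells, B cells and macrophages are the usual carriers, and interferon gamma induces the set in many other cells, in part through the transcription factor IRF1.

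Of the 7 genes, 5 lie in the MHC on chromosome 17 (GRCm38): H2-DMa at 34119541-34139101, H2-DMb1 at 34153072-34160230, H2-Ab1 at 34257689-34269419 and H2-Eb1 at 34305867-34316674 on the plus strand, and H2-Aa at 34282744-34287823 on the minus strand. Ciita lies on chromosome 16 at 10480059-10528418, on the plus strand. Reads that fit more than 1 place were dropped by the authors, which touches H2-DMb1 most: 22.7% of its 50-base exonic stretches also occur in its paralog H2-DMb2, so its level is uncertain to that extent. H2-DMa overlaps Brd2 on the opposite strand (8.43% of stretches shared), and Ciita overlaps Dexi (1.46%). H2-Eb1 has an antisense gene over it, Gm20513. Counting by strand is not given in the sources used here, so reads of such partners could be mixed.

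Promoter sequence was read from RefSeq windows of GRCm38.p6, which were present for 4 of the 7 genes. The 130 bases before the RefSeq start of each are shown because these genes moved together across tumors while their promoters differ in how much of the shared X and Y layout these letters find. For H2-DMb1 and H2-DMa that start lies inside the longer gene model given above, so the stretch overlaps the model. Capitals mark a match to AGNAACNG, a core of the X box, or to ATTGG, a core of the Y box (CCAAT on the other strand), searched on both strands.
H2-Eb1 (chr17:34305737-34305866, plus strand): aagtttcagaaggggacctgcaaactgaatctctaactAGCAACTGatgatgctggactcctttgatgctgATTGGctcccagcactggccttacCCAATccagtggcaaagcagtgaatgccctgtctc
H2-DMb1 (chr17:34153061-34153190, plus strand): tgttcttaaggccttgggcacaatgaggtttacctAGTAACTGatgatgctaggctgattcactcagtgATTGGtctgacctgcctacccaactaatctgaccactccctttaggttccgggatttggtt
H2-Aa (chr17:34287824-34287953, minus strand): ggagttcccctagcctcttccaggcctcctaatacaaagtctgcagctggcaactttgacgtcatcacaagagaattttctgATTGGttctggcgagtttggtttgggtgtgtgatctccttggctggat
H2-DMa (chr17:34122702-34122831, plus strand): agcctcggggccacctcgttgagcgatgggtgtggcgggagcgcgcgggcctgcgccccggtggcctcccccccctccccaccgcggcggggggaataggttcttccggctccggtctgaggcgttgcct
In H2-Eb1 the X core began 92 bases and the Y core 59 bases before the start, with 25 bases between them, and a second Y core, on the other strand, followed nearer to the start. H2-DMb1 had the same order, at 95 and 61 bases before the start and 26 bases apart. H2-Aa held a Y core and no match to the X letters, and the H2-DMa stretch shown, from the first of its 2 windows, held neither. The second H2-DMa window, not printed, held 1 Y core and no X core. Among 32851 windows of 300 bases, 17.4% held an X core, 37.4% a Y core and 0.478% an X core followed within 10 to 40 bases by a Y core. Of the windows of other class II genes, that of H2-Eb2, a beta chain gene, held the same pair, and those of H2-Oa, H2-Ob and H2-DMb2 did not. A match of letters is a description of the window, and no match says only that these letters are not there.

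Cd74 was the most abundant member per length, at a mean of 44.6 CPM per kb of exon over the 20 tumors. The chain genes followed, with 16.9 CPM per kb for H2-Eb1, 15.7 for H2-Aa and 9.67 for H2-Ab1. H2-DMb1 (4.77) and H2-DMa (2.88) were lower, and Ciita (0.421) was lowest on this scale. Neighbors in this order were not tested against each other. The levels below are CPM with TMM library scaling (the trimmed mean method of edgeR).

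H2-Aa and H2-Ab1 encode the alpha and beta chains of I-A, the class II molecule that C57Bl6/J mice display. H2-Aa stood at 82.2, 86.1, 85.2, 31.3 and 49.1 CPM in vehicle replicates 1 to 5 and at 142, 54, 62.2, 101.5 and 77.4 CPM in KW6002 replicates 1 to 5. With cisplatin it stood at 24.3, 19.9, 29.7, 78.6 and 116 CPM, and after cotreatment at 37.0, 25.2, 31.8, 35.6 and 24.7 CPM. All 5 cotreatment tumors were low and close to each other, while cisplatin alone split into 3 low tumors and 2 tumors in the upper part of the vehicle range or above it. H2-Ab1 repeated the order, at 33.6, 36.2, 40.3, 13.2 and 21.2 CPM with vehicle and 55.6, 22.2, 29.3, 39.9 and 29.4 CPM with KW6002. It read 9.71, 8.05, 14.0, 33.3 and 49.8 CPM with cisplatin and 12.1, 10.6, 11.8, 15.1 and 10.95 CPM after cotreatment. In both genes every KW6002 tumor lay above every cotreatment tumor, and vehicle replicate 4 was the only vehicle tumor inside the cotreatment range. The ratio of H2-Aa to H2-Ab1 CPM stayed between 2.11 and 3.05 in all 20 tumors.

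H2-Eb1 encodes the beta chain of I-E, whose alpha chain gene H2-Ea is not expressed in this strain. H2-Eb1 was at 44.7, 46.1, 48.3, 17.9 and 26.0 CPM with vehicle and 78.4, 29.7, 33.4, 56.6 and 44.2 CPM with KW6002. The cisplatin tumors had 14.6, 12.8, 17.2, 44.2 and 60.1 CPM and the cotreatment tumors 18.3, 14.4, 17.1, 19.0 and 13.1 CPM. The pattern was that of I-A, with cisplatin replicates 4 and 5 again high. H2-Ea had 0 counts in 18 tumors and 1 count in each of the other 2, against 12.8 CPM or more of H2-Eb1.

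Cd74, the invariant chain gene, lies outside the MHC, on the plus strand of chromosome 18 at 60803848-60812652. It read 95.2, 114, 110.1, 36.3 and 62.1 CPM in the vehicle tumors and 209.8, 70.6, 77.6, 127 and 104 CPM in the KW6002 tumors. It read 29.6, 22.1, 36.4, 83.9 and 137 CPM with cisplatin and 43.9, 30.7, 37.7, 41.7 and 29.9 CPM after cotreatment. KW6002 replicate 1 held the highest level of all 20 tumors and cisplatin replicate 2 the lowest, a 9.51-fold range. The same 2 tumors bounded H2-Aa (7.11-fold), H2-Ab1 (6.91-fold) and H2-Eb1 (6.15-fold). Cd74 per H2-Aa stayed between 1.07 and 1.48.

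Ciita encodes the transactivator of the other 6 genes. It was at 5.80, 6.399, 5.78, 1.73 and 3.78 CPM with vehicle and 13.0, 4.19, 4.40, 5.96 and 4.99 CPM with KW6002. Cisplatin tumors had 2.54, 1.32, 1.91, 3.47 and 7.24 CPM, and cotreatment tumors 1.297, 1.43, 1.77, 1.87 and 1.37 CPM. These are low levels, 44 to 68 counts per cotreatment library, and the 5 cotreatment tumors were still within a narrow band below all KW6002 tumors. KW6002 replicate 1 was far above the other 4 of its group.

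The peptide loading genes varied less. H2-DMb1, the beta chain of H2-DM, had 9.02, 9.74, 9.21, 5.31 and 7.27 CPM with vehicle and 13.7, 7.84, 7.63, 9.61 and 10.2 CPM with KW6002. It had 5.62, 6.48, 6.17, 10.9 and 11.8 CPM with cisplatin and 6.997, 5.35, 5.01, 7.07 and 5.49 CPM after cotreatment. Here too the KW6002 and cotreatment groups did not overlap. H2-DMa, the alpha chain, ranged from 6.25 to 11.8 CPM with vehicle, 8.07 to 14.0 with KW6002, 8.05 to 15.2 with cisplatin and 7.33 to 8.90 after cotreatment, and its groups overlapped in every comparison. The whole range over the 20 tumors was 2.44-fold for H2-DMa and 2.74-fold for H2-DMb1.

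**Figure D1:**
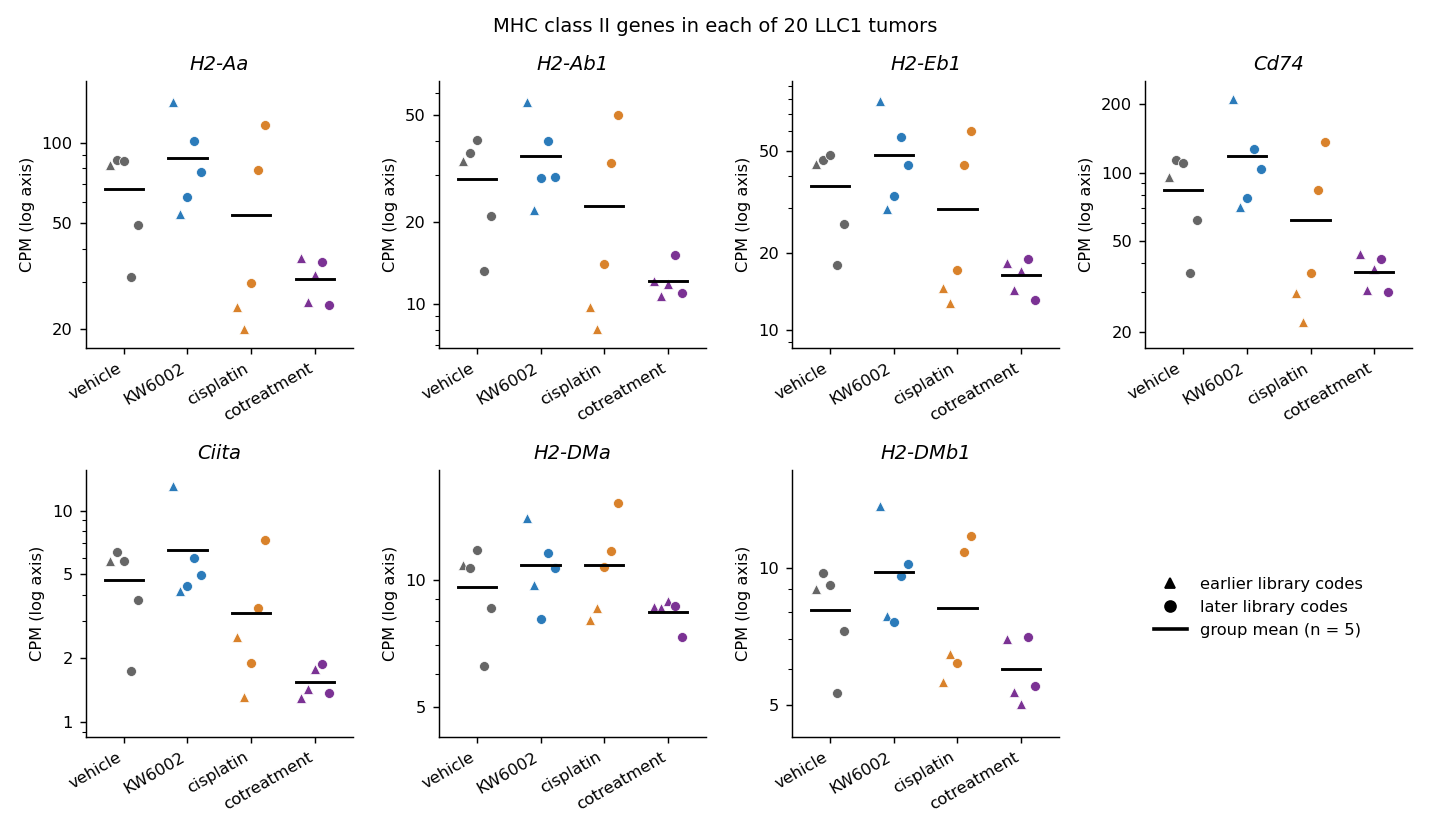
Level of each class II gene in CPM on a log axis, 1 panel per gene and 1 point per tumor, by treatment group, with triangles for earlier and circles for later library codes and a bar at the mean of 5 tumors. The cotreatment tumors form a tight low band for H2-Aa, H2-Ab1, H2-Eb1, Cd74 and Ciita, while cisplatin tumors spread from 19.9 to 116 CPM for H2-Aa.

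Tumors of a group differed widely in 5 of the 7 genes. For the 3 chain genes, Cd74 and Ciita, the coefficient of variation over 5 tumors was 71.2% to 78.6% with cisplatin and 14.6% to 18.6% after cotreatment. Their biological coefficient of variation in the fit was 0.446 to 0.489, against a median of 0.127 over all genes tested. H2-DMa (0.201) and H2-DMb1 (0.242) lay nearer to that median. The wide spread with cisplatin was not particular to class II: the class I genes H2-Q6 and H2-Q7 had coefficients of variation of 80.6% and 78.0% there, and of 24.8% and 23.0% after cotreatment. After each group's mean was removed, each gene followed the mean log2 CPM of H2-Aa, H2-Ab1, H2-Eb1 and Cd74 (leaving out the gene itself), with Pearson's r over 20 tumors of 0.984 to 0.997 for these 4, 0.917 for Ciita, 0.906 for H2-DMa and 0.930 for H2-DMb1. These correlations describe tumors that share a library and its scaling, and no test was attached to them.

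Class II transcripts were lower after cotreatment than after KW6002. Genes were called at an adjusted p under 0.05 with an absolute log2 fold change of at least 0.32, and 6 of the 7 genes were called lower, against 23.3% of all genes tested in this comparison called in either direction. Ciita fell by 2.07 on the log2 scale (SE 0.442, adjusted p = 0.00135), to 0.238 times its KW6002 level. Cd74 fell by 1.68 (SE 0.469, adjusted p = 0.0105) and H2-Eb1 by 1.57 (SE 0.426, adjusted p = 0.00894). H2-Ab1 and H2-Aa, the chains of I-A, fell by 1.54 (adjusted p = 0.0136) and 1.501 (adjusted p = 0.0170), so all 3 chain genes were at about 0.338 to 0.353 times the KW6002 level. H2-DMb1 fell less, by 0.71 (SE 0.217, adjusted p = 0.0151). H2-DMa was not called (log2 fold change -0.36, SE 0.177, adjusted p = 0.119). The groups did not overlap in 6 of 7 genes, against 24.9% of genes tested. In these bulk samples, fewer class II positive cells and less class II RNA per cell cannot be told apart. Without KW6002 replicate 1, 4 genes were called (20.9% of all genes), and H2-Aa (log2 fold change -1.26, adjusted p = 0.0520) and H2-DMb1 (-0.56, adjusted p = 0.0556) were not. Separate terms for the code runs were also fitted in tumors with and without cisplatin. None of the 7 was then called, against 19.9% of all genes (log2 fold changes -0.80 for H2-Aa and -1.38 for Ciita, lowest adjusted p = 0.0687). That fit compares the groups at the level of the later codes, with a run term shared by cisplatin and cotreatment tumors. In the later codes alone the log2 fold changes were -1.40 for H2-Aa and -1.64 for Ciita. None of the 7 was called there either (lowest adjusted p = 0.124), against 9.6% of all genes.

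Against vehicle, cotreatment lowered Ciita and 2 chain genes. Ciita fell by 1.597 (SE 0.441, adjusted p = 0.00857), H2-Ab1 by 1.25 (SE 0.449, adjusted p = 0.0391) and H2-Eb1 by 1.16 (SE 0.424, adjusted p = 0.0424), which makes 3 of 7 genes called, against 23.5% of genes tested. H2-Aa and Cd74 had values of the same size that missed the threshold, at -1.11 (SE 0.453, adjusted p = 0.0672) and -1.18 (SE 0.465, adjusted p = 0.0586). H2-DMb1 was at -0.43 (adjusted p = 0.128) and H2-DMa at -0.19 (adjusted p = 0.428). No member's groups were free of overlap, against 24.7% of genes tested, and for the chain genes, Cd74 and Ciita vehicle replicate 4 was the overlapping tumor. The calls of H2-Ab1 and H2-Eb1 did not survive 7 and 10, respectively, of the 20 refits lacking 1 tumor, with adjusted p up to 0.0929 and 0.0954, and H2-Aa and Cd74 were gained without vehicle replicate 4, cisplatin replicate 2 or cisplatin replicate 5. Ciita was called in all 20 such refits. With code run as a term or with the replicate block, Ciita was called and H2-Ab1 and H2-Eb1 were not (adjusted p 0.0575 to 0.0740). With separate code run terms none of the 3 was called (Ciita -1.07, adjusted p = 0.129, H2-Ab1 -0.54, 0.471, and H2-Eb1 -0.59, 0.431), nor in the later codes alone (Ciita -1.42, adjusted p = 0.138).

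KW6002 alone was not distinguishable from vehicle. All 7 genes had a positive estimate, from 0.17 for H2-DMa to 0.50 for Cd74, but 0 were called by edgeR's quasi-likelihood test (adjusted p = 1 for each), 0 had an unadjusted p under 0.05 (2.03% of all genes), and DESeq2 called 0. The call rate over all genes was also 0% here, and no member's groups were free of overlap, against 0.342% of genes tested. The 95% interval for H2-Aa ran from -0.55 to 1.33 on the log2 scale, so a moderate fall and a larger rise both remain possible. Without KW6002 replicate 1 the estimates were 0.06 to 0.19.

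Cisplatin alone was not distinguishable from vehicle for any member. The estimates against vehicle were -0.31 for H2-Aa, -0.33 for H2-Ab1, -0.30 for H2-Eb1, -0.43 for Cd74, -0.51 for Ciita, 0.18 for H2-DMa and 0.02 for H2-DMb1. By edgeR 0 genes were called and 0 had an unadjusted p under 0.05, against 10.6% and 30.9% of all genes, and DESeq2 called 0. No member's groups were free of overlap, against 10.4% of genes tested. Within the later codes alone the estimates for H2-Aa, H2-Ab1, H2-Eb1 and Cd74 turned positive, from 0.10 to 0.26.

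Cotreatment and cisplatin were compared because in treatment they differ only by KW6002, although the groups also differ in their split between code runs (2 and 3 earlier codes). All 7 estimates were negative, from -0.37 for H2-DMa to -1.09 for Ciita, with adjusted p between 0.147 and 0.351. In edgeR 0 genes were called, against 4% of all genes, 1 (Ciita) had an unadjusted p under 0.05, against 23.3% of all genes, and DESeq2 called 0. No member's groups were free of overlap, against 4.83% of genes tested, and cisplatin replicates 1 to 3 lay in or near the cotreatment range of the chain genes and Cd74. The interaction of both drugs (cotreatment minus cisplatin, less KW6002 minus vehicle) was negative for all 7 genes, from -0.54 for H2-DMa to -1.56 for Ciita. None was called by edgeR (adjusted p 0.293 to 0.472, DESeq2 0), against 0.066% of all genes, and 4 had an unadjusted p under 0.05, against 12.2% of all genes. Cotreatment enters 4 of these comparisons (against vehicle, KW6002 and cisplatin, and the interaction), which are therefore not independent of each other.

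**Figure D2:**
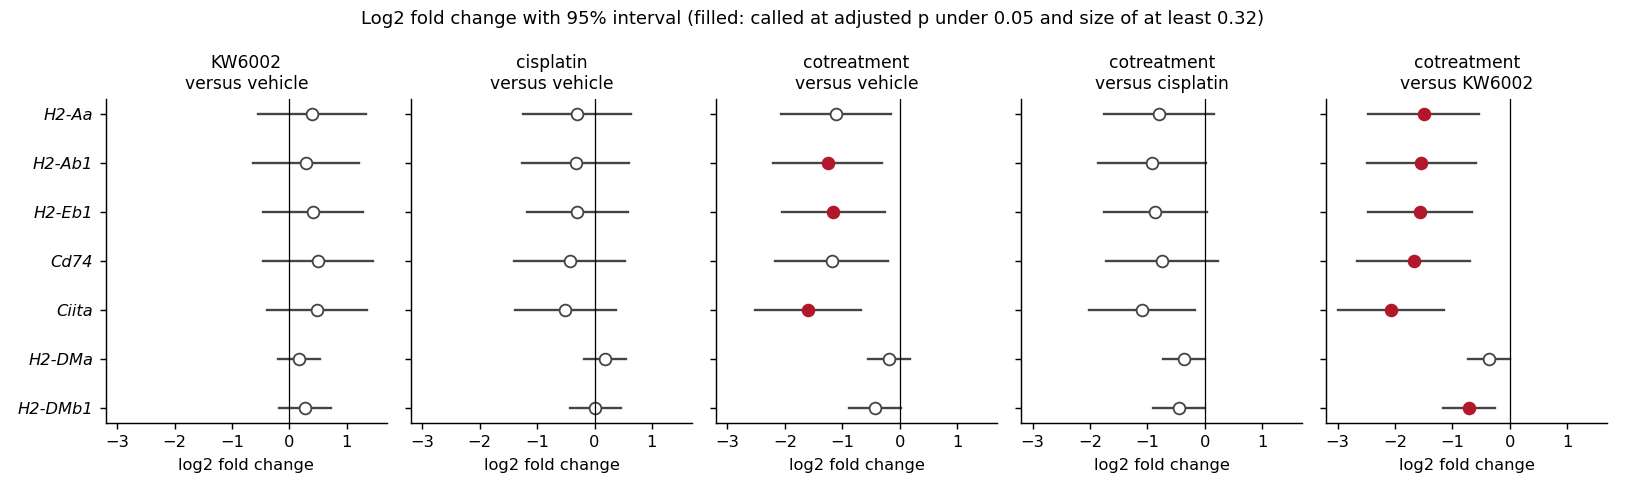
Log2 fold change of each class II gene in 5 comparisons of treatment groups, with 95% intervals, filled where the gene was called. Filled points appear after cotreatment only, 3 against vehicle and 6 against KW6002.

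Class II levels were also compared between the runs of library codes, and no member was called. H2-Aa was at 22.1 ± 3.05 CPM (SD, n = 2) in the earlier and 74.8 ± 43.4 CPM (SD, n = 3) in the later cisplatin tumors, and Cd74 at 25.8 ± 5.32 and 85.6 ± 50.1 CPM. In cotreatment tumors the runs were close, with H2-Aa at 31.3 ± 5.91 CPM (SD, n = 3) in the earlier and 30.2 ± 7.73 CPM (SD, n = 2) in the later codes. In the mean log2 CPM of the 3 chain genes and Cd74, all 3 later cisplatin tumors lay above both earlier ones, with replicate 3 the lowest of the later ones. Fitted over the tumors given cisplatin, earlier minus later codes ranged from -0.24 for H2-DMa to -1.02 for H2-Ab1, with 0 genes called by edgeR (adjusted p 0.138 to 0.367) and 0 by DESeq2, against 7.29% of all genes, and 1 had an unadjusted p under 0.05, against 32.1% of all genes. In tumors without cisplatin the same term was positive for all 7 genes, from 0.22 to 0.62. There edgeR called 0 (adjusted p 0.939 to 0.956, 0 unadjusted against 4.63% of all genes, DESeq2 0), as it did over all genes (0%). Over all tumors together it lay between -0.35 and 0.00, with 0 called (adjusted p 0.660 to 0.998, 0 unadjusted against 13.4% of all genes, DESeq2 0), against 0.006% of all genes called. The difference between both run terms was called for 302 of 16665 genes and for 0 of the 7. Within the earlier codes, cotreatment minus cisplatin was positive for H2-Aa (0.50), H2-Ab1 (0.37), H2-Eb1 (0.27) and Cd74 (0.53), the reverse of the sign over all tumors.

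**Figure D3:**
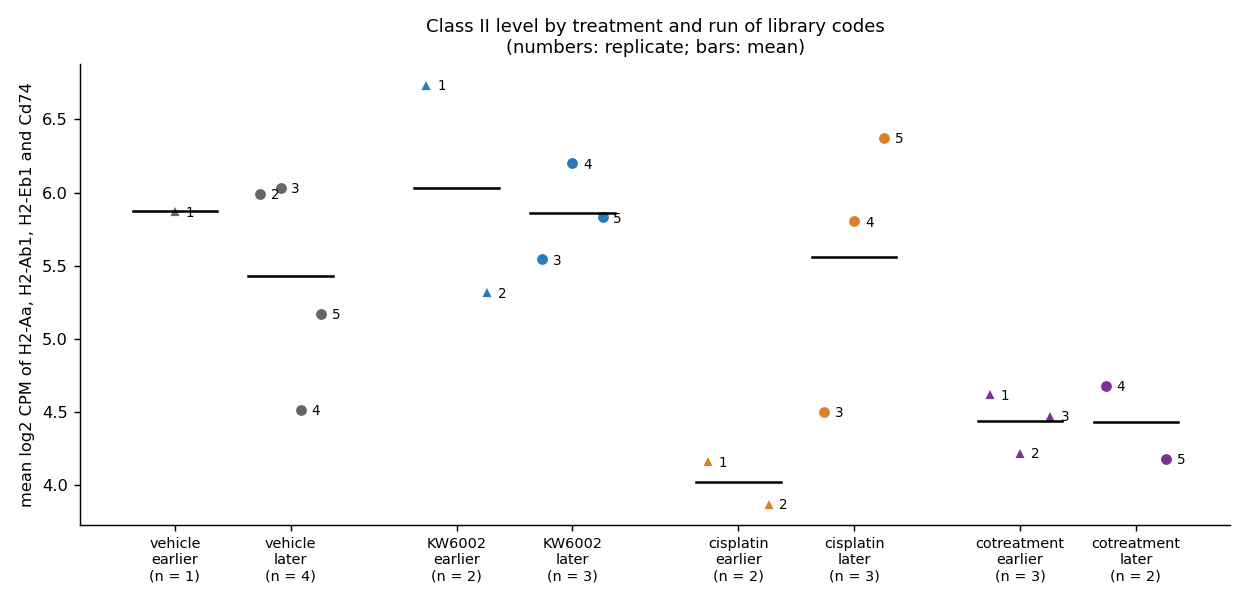
Mean log2 CPM of H2-Aa, H2-Ab1, H2-Eb1 and Cd74 in each tumor, by group and run of library codes, with replicate numbers beside the points and a bar at the mean. The earlier cisplatin tumors sit at 3.87 and 4.16, below the later ones at 4.50, 5.80 and 6.38, and the cotreatment tumors stay between 4.18 and 4.68 in both runs.

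Levels of the cells that could carry class II were read from marker lists. Ptprc, the pan-leukocyte gene CD45, was at 67.0 to 83.3 CPM with vehicle, 76.7 to 114 with KW6002, 57.9 to 66.0 with cisplatin and 42.8 to 59.8 after cotreatment. It was called lower in cisplatin against vehicle (log2 fold change -0.35), in cotreatment against vehicle (-0.56) and in cotreatment against KW6002 (-0.87). The 9 dendritic cell markers summed to 27.6 to 41.2 CPM with vehicle, 32.8 to 51.2 with KW6002, 29.8 to 37.5 with cisplatin and 22.9 to 30.8 after cotreatment. Of the 9, cotreatment lowered 5 against vehicle (Xcr1, Clec9a, Cd209a, Ccr7 and Batf3) and 7 against KW6002 (Itgax and Siglech in addition), where 23.5% and 23.3% of all genes were called in either direction. Without KW6002 replicate 1, 6 and 7 of the 9 were called lower, against 23.6% and 20.9% of all genes. That tumor held the highest KW6002 level of Siglech, 3.11 CPM against 0.451 to 0.672 CPM in the other 4, and of Ccr7, 8.27 CPM against 2.45 to 2.91 CPM. Flt3, a cytokine receptor of dendritic cells, was higher in cisplatin than in vehicle tumors (by 0.495) and lower in cotreatment than in cisplatin tumors (by 0.84). Xcr1, the chemokine receptor of cross-presenting dendritic cells, had 0 to 9 counts per cotreatment library and Clec9a, a receptor for dead cells on the same subset, 2 to 12. With separate code run terms the counts of dendritic cell markers called were 1 and 3 (21.8% and 19.9% of all genes), and in the later codes alone 0 and 1 (12.8% and 9.6%).

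The summed macrophage markers after cotreatment overlapped those of every other group. The 12 genes summed to 1382 to 1852 CPM with vehicle, 1423 to 1738 with KW6002, 1477 to 2515 with cisplatin and 1507 to 1924 after cotreatment, with medians of 1438, 1634, 2025 and 1760 CPM in this order. Against vehicle, cotreatment raised 3 of them (Cd163 by 0.96, Mrc1 by 0.46 and Mertk by 0.43) and lowered 2, Csf1r by 0.32 and Fcgr1 by 0.67, where 23.5% of all genes were called. Against KW6002, where 23.3% were called, it raised Mrc1 (by 0.49) and Mertk (by 0.47) and lowered Csf1r (by 0.43), Cd14 (by 0.35) and Fcgr1 (by 0.84), and against cisplatin it lowered Fcgr1 (by 0.51), where 4% were called. After cisplatin alone, only Mrc1 of this list was called against vehicle, higher by 0.642, where 10.6% of all genes were called. In the cisplatin group the later tumors, which include both high class II tumors, had 2025 to 2515 CPM and the earlier ones 1477 and 1635. The low class II tumor of the later run, replicate 3, had 2214 CPM. B cell markers outside KW6002 replicate 1 summed to at most 6.92 CPM, and the T and NK cell list reached 1.41 to 3.597 CPM after cotreatment. Against KW6002, 2 of 4 tested B cell and 5 of 7 T and NK cell markers were called lower after cotreatment (23.3% of all genes). Without KW6002 replicate 1 the T and NK cell count was 3 (20.9% of all genes), and the B cell markers concerned, Cd79b and Jchain, were not called (log2 fold changes 0.06 and -0.995).

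Markers of other cells moved with cotreatment as well. All 5 endothelial markers were called lower against vehicle, where 23.5% of all genes were called, with log2 fold changes from -0.68 for Emcn to -1.105 for Cdh5, and all 5 were lower after cisplatin alone too, where 10.6% of all genes were called. Of 5 neutrophil markers, 4 were lower after cotreatment than with vehicle (23.5% of all genes) and 2 after cisplatin (10.6%). Of 4 monocyte markers, Chil3 was higher (by 2.87) and Ly6c2 lower (log2 fold change -1.697) after cotreatment than with vehicle (23.5% of all genes). Chil3 was also higher after cisplatin alone (by 2.37, with 10.6% of all genes called). Of 7 fibroblast markers, 2 were lower than with vehicle after cotreatment (23.5% of all genes) and 3 after cisplatin (10.6%). Cotreatment also lowered all 5 endothelial markers against KW6002, from -0.605 for Emcn to -1.03 for Kdr, where 23.3% of all genes were called. In that comparison 4 of 5 neutrophil markers and Ly6c2 (-2.191) were lower and Chil3 was higher (by 2.977). Among fibroblast markers Lum and Pdgfrb were lower and Dcn higher there. The 5 red blood cell genes summed to 25.95 to 117 CPM with vehicle, at most 0.0613 CPM with cisplatin and at most 0.110 CPM after cotreatment. The part of these cell types in the class II differences was not tested.

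**Figure D4:**
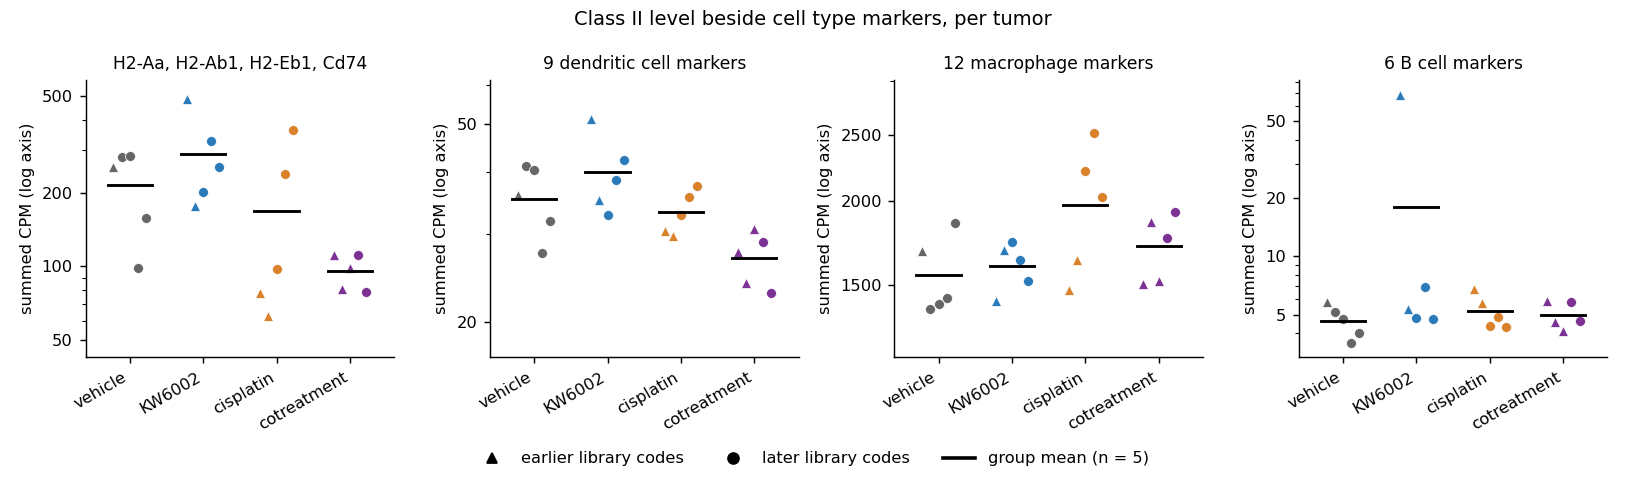
Summed CPM per tumor on log axes for H2-Aa, H2-Ab1, H2-Eb1 and Cd74, and for lists of dendritic cell, macrophage and B cell markers, by group, with symbols as in the plot of member levels. Class II and dendritic cell markers are low after cotreatment, the macrophage sums of the groups overlap, and 1 KW6002 tumor stands alone at 68.2 CPM of B cell markers.

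The other class II genes were also lower after cotreatment than after KW6002. H2-Oa and H2-Ob encode H2-O, an inhibitor of H2-DM found mostly in B cells, and H2-Eb2 and H2-DMb2 are further beta chains. Against KW6002, cotreatment lowered all 4 that passed the filter, where 23.3% of all genes were called: H2-Eb2 by 3.76, H2-Ob by 2.43, H2-Oa by 2.24 and H2-DMb2 by 1.47. Without KW6002 replicate 1, H2-Eb2 fell by 2.71 (adjusted p = 0.00262), H2-Oa by 1.31 (0.0460) and H2-Ob by 1.23 (0.000979), and H2-DMb2 was not called (log2 fold change -0.56, 0.0881). H2-Ob was at 13.7 CPM in KW6002 replicate 1 and at 1.42 to 2.06 CPM in the other 4 KW6002 tumors, against 0.374 to 0.979 CPM after cotreatment. Without that tumor 3 of 4 were called against KW6002, and 4 of 4 against vehicle where 0 had been (20.9% and 23.6% of all genes). With separate code run terms 0 were called in either comparison (19.9% and 21.8% of all genes). In the later codes alone, H2-Ob was called lower against KW6002 (-1.42, adjusted p = 0.0306, 9.6% of all genes) and against vehicle (-1.22, adjusted p = 0.0391, 12.8%).

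Part of the interferon gamma axis, which induces Ciita, was lower after cotreatment. Against vehicle, 5 of 8 tested genes fell and 0 rose, where 23.5% of all genes were called in either direction, among them Irf1 by 0.62, Socs1 by 0.41, Jak2 by 0.37 and Ifngr2 by 0.36. Ifngr1, Jak1 and Irf8 were not called. The median of the list was -0.36, against -0.02 over all genes tested. After cisplatin alone no gene of this list was called against vehicle, where 10.6% of all genes were called. By edgeR, Irf1 (-0.27, adjusted p = 0.0107), Jak2 (-0.29, 0.00902) and Ifngr2 (-0.25, 0.0162) missed only the fold limit there, while Irf8 (0.11) and Ifngr1 (0.01) were positive. Cotreatment minus cisplatin was -0.08 for Jak2 and -0.11 for Ifngr2, neither called. Irf1, a transcription factor acting on Ciita, was at 95.5, 97.3, 91.9, 101 and 92.4 CPM with vehicle and 106, 105.0, 93.9, 92.0 and 102.0 CPM with KW6002. It stood at 80.8, 77.8, 71.3, 76.1 and 91.8 CPM with cisplatin and 68.3, 55.1, 58.5, 66.9 and 62.9 CPM after cotreatment. The cotreatment tumors lay below every other tumor, and Irf1 was also called against cisplatin (log2 fold change -0.35, adjusted p = 0.00519). Unlike the class II genes, its call against vehicle held with separate code run terms (-0.57, adjusted p = 4.44e-05), while the list's count fell to 2 (21.8% of all genes). Against KW6002, 5 of 8 fell, where 23.3% of all genes were called, with Irf8 (by 0.42) in place of Jak2. Ifng itself had 0 to 9 counts per tumor, and 0 in each cotreatment tumor, too few to test.

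Of 7 promoter factor genes, 1 was called against vehicle, Creb1, lower after cisplatin (by 0.33) and after cotreatment (by 0.38), where 10.6% and 23.5% of all genes were called. Against KW6002, where 23.3% of all genes were called, Creb1 was lower after cotreatment (by 0.39) and Rfxank, a subunit of RFX, higher (0.36). Of 8 genes of endosomal proteolysis, cisplatin changed 2 and cotreatment 1 against vehicle, where 10.6% and 23.5% of all genes were called. Against vehicle, cisplatin raised Lgmn, the asparaginyl endopeptidase, by 0.43 and lowered Ctsl by 0.34, and cotreatment raised Ctss, the protease that trims the invariant chain, by 0.38. Ifi30, a lysosomal thiol reductase, was lower in cotreatment than in KW6002 tumors (by 0.44). In tumors given cisplatin 5 of 8 genes of this list (Ctsb, Ctsd, Ctsh, Ifi30 and Cst3) were lower in the earlier codes, by 0.35 to 0.79, where 7.29% of all genes were called. With the later codes alone, 6 of 8 were called higher after cisplatin than after vehicle, where 15.9% of all genes were called.

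Of 3 genes of class II turnover at the cell surface, 2 were called after cotreatment, where 23.5% (vehicle), 4% (cisplatin) and 23.3% (KW6002) of all genes were called. Marchf1, a ubiquitin ligase that removes class II from the surface, rose after cotreatment by 0.47 against vehicle, 0.34 against cisplatin and 0.40 against KW6002. Cd83, which opposes Marchf1 on mature dendritic cells, fell by 1.10, 1.13 and 1.27 in the same comparisons. Cd83 was at 2.86, 1.52, 1.64, 3.66 and 1.97 CPM in the cotreatment tumors and at 3.21 to 6.995 CPM in the other 15. The highest cotreatment tumor, replicate 4, overlapped the other groups. Marchf8, a related ligase, was not called (log2 fold changes -0.08, 0.03 and -0.06). With the later codes alone, neither Marchf1 nor Cd83 was called against vehicle or cisplatin. Later tumors had 3.66 and 1.97 CPM of Cd83 after cotreatment, 5.66 to 6.805 CPM with cisplatin and 3.47 to 5.59 CPM with vehicle. Their Marchf1 was at 18.28 and 18.81 CPM after cotreatment, 14.55 to 15.62 CPM with cisplatin and 13.03 to 18.11 CPM with vehicle.

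Class I presentation, the route for peptides made in the cytosol, changed in part. Of 10 genes, cotreatment lowered 4 against vehicle and the same 4 against KW6002, where 23.5% and 23.3% of all genes were called, namely Tapbp (by 0.70 and 0.69) and the immunoproteasome subunits Psmb8 (by 0.88 and 1.09), Psmb9 (by 0.94 and 1.10) and Psmb10 (by 0.78 and 0.82). H2-K1, H2-D1, B2m, Tap1, Tap2 and the class I transactivator Nlrc5 were not called in either. Tapbp was also lower after cisplatin alone than with vehicle (log2 fold change -0.40, adjusted p = 0.00071, 10.6% of all genes called), and Psmb10 lower in cotreatment than in cisplatin tumors (-0.515, adjusted p = 0.0121, 4% called). Tapbp, Psmb8 and Psmb10 were still called with separate code run terms, where 21.8% (vehicle) and 19.9% (KW6002) of all genes were called.

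**Figure D5:**
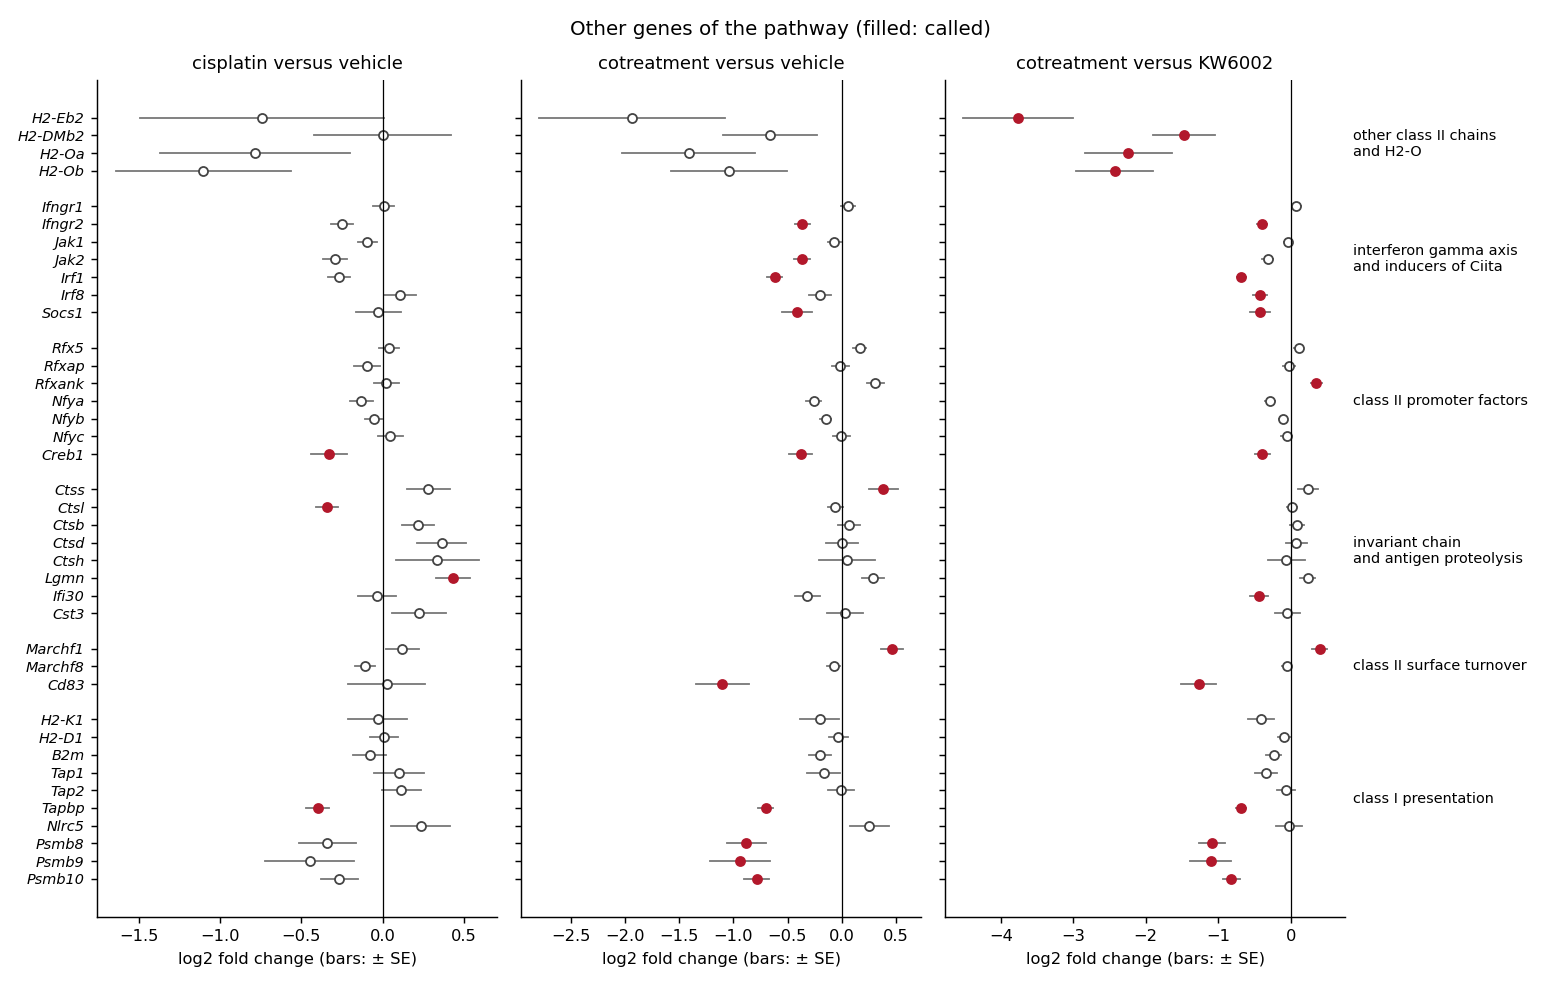
Log2 fold change with its SE for the other genes of the pathway, grouped by list, in 3 comparisons, filled where called. Tapbp and the immunoproteasome genes are filled on the lower side after cotreatment in both of its comparisons, as is Irf1. Most promoter factors stay near 0, apart from Creb1, Rfxank and Nfya, the last of which was not called.

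The genes whose level followed class II most closely from tumor to tumor were sought among 12737 genes with a mean of at least 50 counts, by Pearson's r with the mean log2 CPM of H2-Aa, H2-Ab1, H2-Eb1 and Cd74 over 20 tumors after removal of group means. The 10 highest were H2-Q7 (r = 0.950), Mgl2 (0.936), Psmb8 (0.935), Cytip (0.927), Itih5 (0.925), Acvrl1 (0.921), Psmb9 (0.915), H2-Q6 (0.915), H2-K1 (0.904) and Id2 (0.903). Without the 2 tumors farthest from the median, cisplatin replicates 5 and 2, r stayed between 0.836 for Id2 and 0.961 for H2-Q7. H2-Q6, H2-Q7 and H2-K1 are class I heavy chain genes of the same locus and resemble each other in sequence, and Mgl2 is a C-type lectin of macrophages and dendritic cells. Likeness within groups did not carry over to the group differences for all of them: Psmb8, Psmb9 and Acvrl1 were lower after cotreatment against both vehicle and KW6002, whereas Id2, a transcription regulator, was higher by 0.49 and 0.50, and Mgl2, Itih5, H2-Q6 and H2-K1 were not called in either.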

How the data were processed

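Gene expression was measured in 20 tumors, 1 library each. Per the labels and the study's methods, the authors made stranded poly(A) libraries, sequenced 50-base single-end reads, aligned them to mm10 (GRCm38) with STAR and deposited raw counts from uniquely aligned reads per Ensembl gene (HTSeq 0.6.1p1, union mode). No column of the table was left out. Replicates are separate tumors per the labels.

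Counts were tested with edgeR version 4.0.16 (R version 4.3.3): filterByExpr kept 16665 of 35226 genes and 99.9% of counts, libraries were scaled by TMM, and a robust quasi-likelihood model with 4 group means was fitted to all 20 tumors. Code run terms were added in separate fits. P values are two-sided and Benjamini-Hochberg adjusted over all genes tested. Log2 CPM used a prior count of 2. Alternatives included DESeq2 version 1.42.0, other scalings and filters, code run terms, a replicate block and leaving out each tumor. The procedure was tested on simulated data.

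Named are all members, genes of the pathway lists called in at least 1 comparison, and the 10 genes most like the set. Marker lists are given by their summed level or counts, with some genes as examples. Some genes of the lists are counted but not reported by name here. Members and lists were chosen with earlier results of these data known. Reads carried no molecular identifiers, so intervals do not cover PCR copies.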

Additional observations from a re-analysis of the deposited data

Results flagged for a closer look

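In 28 checks of a member within a group of 5 tumors, 2 tumors lay far from the other 4 of their group, by a gap of more than 0.71 of the group's range. Chance alone marks about 1 group in 20. Ciita in KW6002 replicate 1 was at 13.03 CPM, and the other KW6002 tumors were at 4.191 to 5.956 CPM (gap 0.8 of the range). The B cell and T and NK cell markers of that tumor were also the highest of all tumors, at 68.21 and 25 CPM, and their part in its Ciita level was not tested. H2-DMa in cotreatment replicate 5 was at 7.331 CPM, below the other cotreatment tumors at 8.569 to 8.901 CPM (gap 0.788 of the range).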

How the results depend on the processing

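The count of members called lower after cotreatment against vehicle, 3, was 5 with DESeq2 or with only the compared groups fitted, 1 without the filter on low counts, 1 with the replicate block, 1 with code run as a term, 0 with separate code run terms and 0 in the later codes alone, and 1 to 5 when 1 tumor was left out. Against KW6002 the count of 6 became 0 with separate code run terms and 0 in the later codes alone, and 4 to 6 when 1 tumor was left out. It became 7 with only the compared groups fitted, where H2-DMa was called too (adjusted p = 0.0395) and 3840 genes were called over all genes. In the earlier codes alone it was 4, without H2-Aa (adjusted p = 0.0651) and Cd74 (0.0633). With fewer tumors or more terms these fits have less precision. With separate code run terms the estimates given above were also smaller, and the reason for the lost calls was not tested. The counts of 0 in the other comparisons stayed at 0 in all alternatives run. RLE and upper quartile scaling and a minimum of 10 counts in every tumor changed no count. Over all genes, DESeq2 called 3953 of 16665 after cotreatment against vehicle, and the main fit 3914. That count was 3857 with only the compared groups fitted and 3715 without the filter. It was 3769 with the replicate block and 3821 with code run as a term. The shares of all genes with separate code run terms and in the later codes are given above, and that in the earlier codes alone is not given here.

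Same-numbered tumors of different groups did not deviate together (median correlation -0.03 over 30 pairs, against 0.007 for other pairs). It was above 0.1 in 12 pairs, and 5 of 20 tumors correlated best with their own number. The replicate numbers thus gave no sign of pairing, which does not settle whether tumors were paired by design. The block left 6 calls against KW6002.

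Signs that turned were all of uncalled values. In cisplatin against vehicle, H2-DMb1 was -0.015 with the block and -0.15 to 0.13 when 1 tumor was left out, and in the later codes alone H2-Aa was 0.26, H2-Ab1 0.24, H2-Eb1 0.24 and Cd74 0.10. In cotreatment against cisplatin within the earlier codes, H2-Aa was 0.50, H2-Ab1 0.37, H2-Eb1 0.27, Cd74 0.53 and H2-DMa 0.055. H2-DMa in cotreatment against vehicle was 0.01 with separate code run terms. The code run term over all tumors was -0.009 (DESeq2) and -0.58 (block) for Ciita, and -0.32 to 0.19 for Ciita and -0.105 to 0.058 for H2-DMa when 1 tumor was left out. In tumors without cisplatin it was -0.12 for H2-Aa, -0.14 for H2-Ab1, -0.069 for H2-Eb1, -0.21 for Cd74 and -0.16 for H2-DMb1 with the block, and when 1 tumor was left out -0.036 to 0.61, -0.095 to 0.53, -0.052 to 0.60 and -0.11 to 0.66 for the first 4. The cause was not tested. Counts of 44 to 68 limit Ciita after cotreatment.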
